A study of Mus musculus with 12 samples.

Results

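The effect of lowering TRAX was followed in the striatum of wild-type and Huntington's disease model mice in 1 pooled comparison. All 12 libraries of the series enter, 6 with a virus carrying a short hairpin RNA (shRNA) against TRAX and 6 with a control virus, and 23453 of 51912 genes were tested. The groups were WT-C and R6/2-C with the control virus and WT-T and R6/2-T with shTRAX, with 3 libraries each. WT mice and R6/2 mice share a B6CBA background, and R6/2 mice carry a transgene with exon 1 of the human huntingtin gene. At 5 weeks each animal received adeno-associated virus in the striatum on both sides (2 µl a spot, titre 2.5e9 vector genomes in each µl), and tissue was taken at 10.5 weeks. Every animal was thus injected, the controls too, and no group without virus was analysed here. The labels name neither the promoter of the hairpin nor the cells it reached, and whether a library stands for 1 animal is not stated in them.

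TRAX, encoded by Tsnax, pairs with translin (Tsn) to form C3PO, an RNA-cleaving complex that helps to activate the RNA-induced silencing complex by removing the passenger strand of small RNAs. TRAX is also known as a partner of the adenosine receptor Adora2a, of DISC1 and of GSK3, and it takes part in the response to DNA breaks. An shRNA lowers the messenger RNA it matches through the same silencing machinery. The pooled comparison asks which genes differ between shTRAX and control libraries once the genotype difference is taken out.

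Libraries held 32206236 to 57308866 recovered fragments, and mitochondrial genes took 8.03% to 11.17% of the estimated counts. The levels below are CPM, counts scaled to a common library total with TMM factors, and changes are log2 values of shTRAX over control with genotype in the model. WT-T 1 stood apart from its group. It differed from WT-T 3 by a chi-square per degree of freedom of 123.26 and from WT-T 2 by 73.44, against 29.73 between WT-T 2 and WT-T 3. R6/2-C 1 and R6/2-C 2 differed by as much as 74.73. The sample quality weight was lowest in WT-T 1, 0.413, and next lowest in R6/2-C 1, 0.509. R6/2-T libraries were the closest to each other, at 10.77 to 12.44. Because WT-T 1 stands apart, counts are given with and without it.

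Tsnax (ENSMUSG00000056820, GRCm38 chromosome 8, 125012997 to 125034192) checks the labels. Across the 6 control libraries it ranged from 151 to 197 CPM, and across the 6 shTRAX libraries from 27.6 to 47 CPM. No shTRAX library came near a control library. The pooled log2 change was −2.20 (SE 0.08, edgeR adjusted p = 6.21e-08), which leaves 21.8% of the control level. An exact permutation of the virus labels within genotype gave a two-sided p of 0.005, the smallest its 400 arrangements allow. No other gene among the called genes changed by more than 1 on the log2 scale.

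In all, 39 genes were called, 18 higher and 21 lower with shTRAX, at an edgeR adjusted p under 0.05. They are 0.166% of the genes tested, 0.0767% higher and 0.0895% lower. At an unadjusted p under 0.05, 6.61% of genes were higher and 5.2% lower. The median change of all genes was −0.01. The count depended on single libraries: it was 299 without WT-T 1, and 4, 21 and 2 without R6/2-C 1, R6/2-C 2 and R6/2-C 3. It was 12, 2 and 3 without R6/2-T 1, R6/2-T 2 and R6/2-T 3, 6 and 2 without WT-C 2 and WT-C 3, 3 and 14 without WT-T 2 and WT-T 3, and 31 without WT-C 1. DESeq2 called 432 genes, and the fragments recovered from the second set of deposited columns gave 107. Tsnax was called in all 27 other fits, Slc5a6 in 21, Tusc3 in 20, Snu13 in 19 and Srxn1 in 18, while Prrg3 and Tbc1d16 were called in 10.

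**Figure D1:**
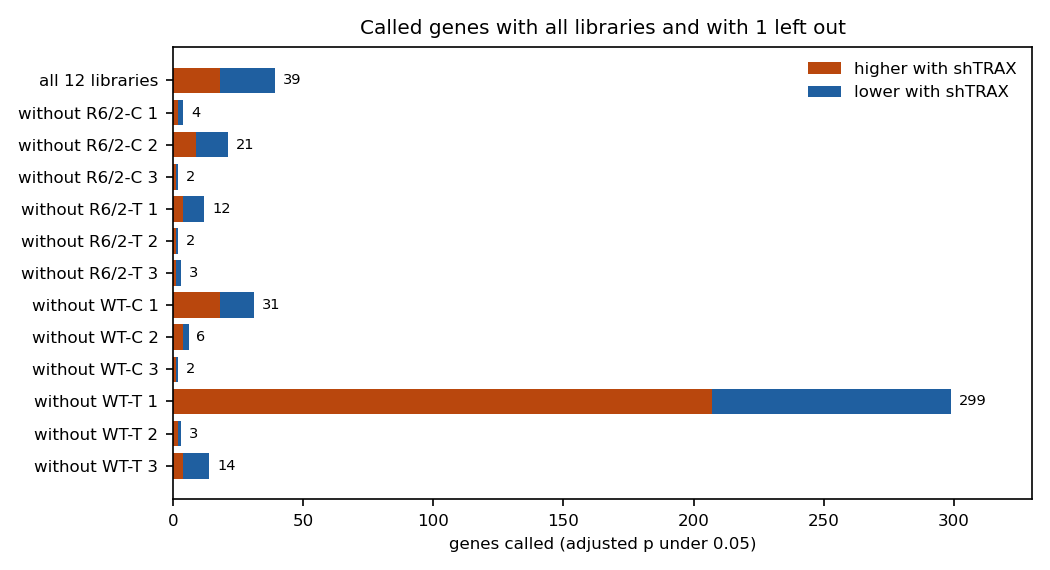
Number of genes called (x axis) with all 12 libraries and with each library left out (y axis), split into genes higher and lower with shTRAX. The count was 39 with all libraries, between 2 and 31 in 11 of the 12 reduced fits, and 299 without WT-T 1.

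The named genes that rose are given by their known roles, first the transporter and the receptors. Slc5a6, the sodium-dependent transporter of biotin and pantothenate, measured 11.8, 10.8 and 10.7 CPM in WT-C against 15.1, 21.2 and 18.7 in WT-T. The R6/2 controls had 15.3, 15.4 and 14.2 CPM against 23.4, 23.8 and 22.6 with shTRAX. Every shTRAX library lay above the controls of its genotype, and the change was 0.68 (SE 0.08, edgeR adjusted p = 0.019), or 160% of control. Slc5a6 overlaps Atraid on the opposite strand, and Atraid had a change of −0.03 (SE 0.12). Htr2c, the serotonin 2C receptor, ranged from 53.9 to 62.1 CPM in WT-C and from 86 to 91.6 in WT-T. In R6/2 it ranged from 137 to 178 CPM in the controls and from 191 to 213 with shTRAX. The groups were separate within each genotype, although R6/2 controls lay above WT-T, and the change was 0.50 (SE 0.08, adjusted p = 0.0368). Gpr161, an orphan receptor of the primary cilium that restrains hedgehog signalling, rose by 0.52 (SE 0.07), from 10.5 to 10.7 CPM in WT-C to 13.03 to 15.3 in WT-T and from 15.6 to 18.1 CPM in R6/2-C to 25.1 to 26.5 in R6/2-T. Galr1, a galanin receptor, was the least abundant, with 1.24 to 1.59 CPM in the controls and 2.11 to 2.74 with shTRAX (log2 0.80, SE 0.12). All 6 shTRAX libraries lay above all 6 controls for Galr1.

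The other named genes that rose encode enzymes, adaptors and structural proteins. Otud4, a deubiquitinating enzyme, had 59.8 to 80.5 CPM in the controls and 85.6 to 102 with shTRAX, with no overlap (log2 0.49, SE 0.08). Klhl42, a substrate adaptor of a cullin ubiquitin ligase, had 18.3 to 21.8 and 23.8 to 38.3 CPM (log2 0.55, SE 0.09). Senp5, a SUMO protease, rose by 0.63 (SE 0.09) in estimated counts but was not called in recovered fragments (adjusted p = 0.332). Dnajc27, a small GTPase with a J domain, had 82.5 to 99.6 CPM in WT-C, 103 to 134 in WT-T, 98.9 to 103 in R6/2-C and 162 to 178 in R6/2-T (log2 0.61, SE 0.09). Cdkl2, a cyclin-dependent kinase-like kinase, rose by 0.50 (SE 0.07), Nkrf, a repressor of NF-kappa-B target genes, by 0.69 (SE 0.11) and Prrg3, a membrane protein with a Gla domain, by 0.58 (SE 0.10). For Nkrf and Prrg3, WT-T 1 overlapped the WT-C libraries. Cfap46, a component of motile cilia, had 4.56 to 6.95 CPM in the controls and 7.28 to 12.96 with shTRAX (log2 0.72, SE 0.11). The remaining 6 of the 18 are unnamed gene models or pseudogenes, counted but not described.

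**Figure D2:**
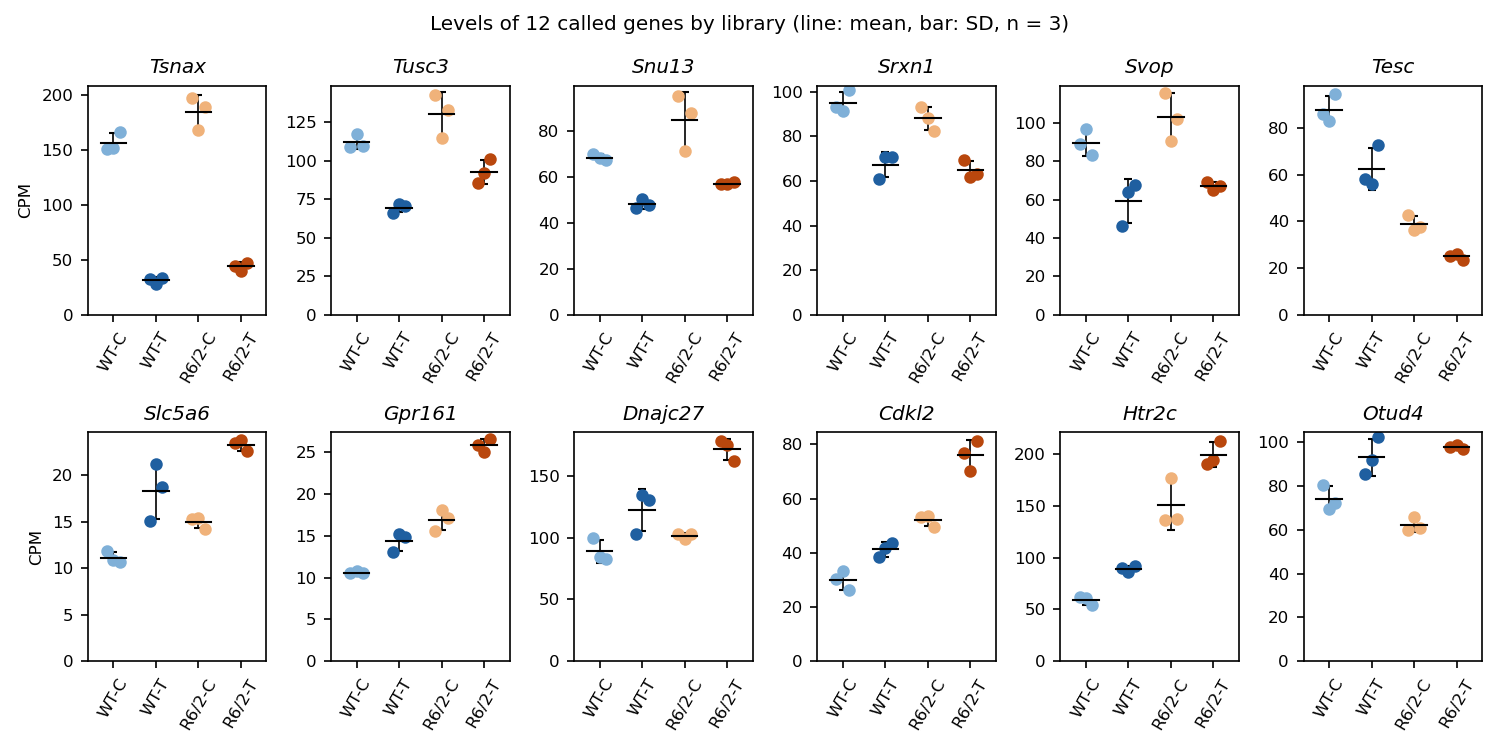
Level in CPM (y axis) of 12 called genes in each library, by group (x axis), with points for libraries, lines for means and bars for the SD (n = 3). In both genotypes the shTRAX libraries lie below their controls for Tsnax, Tusc3, Snu13, Srxn1, Svop and Tesc, and above them for the other 6 genes.

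Beside Tsnax, the enzymes and membrane proteins among the genes that fell come first. Tusc3, a subunit of the oligosaccharyltransferase that glycosylates proteins in the endoplasmic reticulum, measured 109, 117 and 110 CPM in WT-C against 66.2, 71.8 and 70.6 in WT-T. The R6/2 controls had 143, 115 and 133 CPM, and the R6/2-T libraries 85.4, 92 and 100.99. All 6 shTRAX libraries lay below all 6 controls (log2 −0.59, SE 0.07, adjusted p = 0.0196, or 66.6% of control). Spcs3, a subunit of the signal peptidase complex that overlaps Asb5 on the opposite strand (log2 −0.54, SE 0.28), had 73.4 to 84.7 CPM in the controls and 47.7 to 66.8 with shTRAX (log2 −0.45, SE 0.07). B3galt5, a galactosyltransferase, fell by 0.64 on the log2 scale (SE 0.10), from a range of 91.1 to 131 CPM to one of 51.2 to 92.6, overlapping between genotypes but not within either. Tm9sf4, a member of the nonaspanin membrane proteins, had 72.3 to 78 CPM in the controls and 49.4 to 63.1 with shTRAX (log2 −0.44, SE 0.06).

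Svop, a transporter-like protein of synaptic vesicles, had 83.3 to 116 CPM in the controls and 46.5 to 69.3 with shTRAX, with no overlap (log2 −0.61, SE 0.10). Tesc, the calcium-binding protein tescalcin, measured 85.8, 82.8 and 94.4 CPM in WT-C against 58.2, 56.2 and 72.8 in WT-T, 42.6, 36.5 and 37.5 in R6/2-C and 25.2, 26.2 and 23.6 in R6/2-T (log2 −0.56, SE 0.08). Tesc was not called in recovered fragments (adjusted p = 0.134). Its level thus stood lower in R6/2 than in WT under either virus, and lower with shTRAX in each genotype. Rcan1 and Rcan2, regulators of the phosphatase calcineurin, fell by 0.38 (SE 0.06) and 0.45 (SE 0.08) on the log2 scale, each with no overlap between the 6 and 6 libraries. Prmt8, an arginine methyltransferase of the brain, had a change of −0.49 (SE 0.08), and Coch, the matrix protein cochlin, −0.44 (SE 0.07). Snu13, a protein of the spliceosome and of small nucleolar RNA particles, had 67 to 95.1 CPM in the controls and 46.4 to 57.8 with shTRAX (log2 −0.54, SE 0.07). Nfyb, a subunit of the CCAAT-binding factor NF-Y, fell by 0.51 (SE 0.07). Srxn1, sulfiredoxin, which restores oxidised peroxiredoxins, had 82.6 to 100.7 CPM in the controls and 60.8 to 70.7 with shTRAX (log2 −0.47, SE 0.06). Tbc1d16, a Rab GTPase-activating protein, had a change of −0.46 (SE 0.08), and Fam114a2 −0.47 (SE 0.07).

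The rule for naming genes leaves out 4 more genes that fell, and they were chosen after their values were seen. They are Smpd1, acid sphingomyelinase (log2 −0.43), Pdcd6, a calcium-binding protein (log2 −0.42), Plod1, a lysyl hydroxylase of collagen (log2 −0.41), and Fbxw11, an F-box protein of a ubiquitin ligase (log2 −0.35). The last gene lower, Rpl10-ps3, had a change of −0.70 and is a near copy of Rpl10, which itself had −0.64 (SE 0.15, adjusted p = 0.144). Reads may have been split between these copies, so its value is uncertain. Per gene length, the called genes spanned a wide range of levels: the median FPKM over control libraries was 77.9 for Rcan2, 69.1 for Tusc3 and 64.4 for Tsnax, and 0.454 for Galr1.

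Promoters of 4 called genes are shown, each with at least 1 motif match, so they are not a fair sample of the called genes. The motifs were chosen because Nfyb encodes a subunit of the factor that binds CCAAT and because Srxn1 is an antioxidant gene. Neither motif was in the promoter entry of Nfyb itself, nor in the other entries of Gpr161 and Rcan1. Both motifs, CCAAT and TGACNNNGC, the core of the antioxidant response element, were searched on both strands and counted separately where they overlap. Sequences are RefSeq's for GRCm38.p6, 250 bases before to 50 after a gene's start, with the matches in capitals. Dnajc27 (chr12:4082324-4082623, plus strand) and Gpr161 (chr1:165295516-165295815, plus strand) rose, and Rcan1 (chr16:92466120-92466419, minus strand) and Srxn1 (chr2:152105274-152105573, plus strand) fell.
Dnajc27: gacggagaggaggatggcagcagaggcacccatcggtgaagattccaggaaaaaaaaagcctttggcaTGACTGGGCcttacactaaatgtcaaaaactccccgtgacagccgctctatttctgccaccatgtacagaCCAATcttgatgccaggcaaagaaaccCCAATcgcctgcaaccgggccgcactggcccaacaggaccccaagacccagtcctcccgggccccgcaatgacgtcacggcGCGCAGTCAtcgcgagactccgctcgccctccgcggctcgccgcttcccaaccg
Gpr161: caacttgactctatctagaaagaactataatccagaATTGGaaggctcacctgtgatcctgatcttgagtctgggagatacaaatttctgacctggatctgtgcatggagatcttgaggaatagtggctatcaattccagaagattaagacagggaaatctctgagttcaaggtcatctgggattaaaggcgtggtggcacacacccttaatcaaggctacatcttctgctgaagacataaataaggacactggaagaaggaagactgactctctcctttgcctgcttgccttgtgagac
Rcan1: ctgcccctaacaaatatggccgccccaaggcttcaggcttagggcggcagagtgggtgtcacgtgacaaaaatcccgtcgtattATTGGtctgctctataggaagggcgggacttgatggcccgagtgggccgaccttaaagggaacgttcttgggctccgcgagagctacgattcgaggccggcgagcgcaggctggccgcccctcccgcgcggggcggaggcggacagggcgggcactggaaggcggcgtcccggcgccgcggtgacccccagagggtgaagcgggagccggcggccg
Srxn1: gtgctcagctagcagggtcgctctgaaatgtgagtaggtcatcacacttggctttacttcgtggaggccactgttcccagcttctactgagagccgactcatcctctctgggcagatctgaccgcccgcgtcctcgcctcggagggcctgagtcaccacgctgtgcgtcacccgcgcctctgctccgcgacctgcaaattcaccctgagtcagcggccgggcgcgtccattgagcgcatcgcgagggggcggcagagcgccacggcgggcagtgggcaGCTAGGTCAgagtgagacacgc
Promoter entries were found for 10 named genes that rose and 14 that fell. CCAAT was in 7 of 14 promoters of genes that rose and 4 of 20 of genes that fell, against 37.4% of all 32851 promoters. TGACNNNGC was in 3 of 14 and 2 of 20, against 12.4% of all promoters. These matches describe letters in a window and no binding was measured.

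The WT and R6/2 changes come from separate libraries and can be set side by side. Among the 18 genes higher, the median log2 change was 0.53 in WT and 0.69 in R6/2, and 12 of 18 had the larger change in R6/2. Among the 21 lower, the medians were −0.52 and −0.47, and 10 of 21 had the larger change in R6/2. Within each genotype alone edgeR called 1 gene in WT (0.00426% of genes tested), Tsnax, and 16 in R6/2 (0.0682%). The unadjusted p was under 0.05 for 1512 and 4513 genes, and DESeq2 called 114 and 1685. Tsnax is thus 1 of 1 in WT and 1 of 16 in R6/2. Of the 39 pooled genes, 34 were called in neither genotype alone. Without R6/2-C 2 the R6/2 count was 1197, it was between 2 and 14 without any 1 of the other libraries but WT-T 1, and without WT-T 1 it was 318 and the WT count was 11.

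No called gene had a called difference between genotypes. The pooled fit has no interaction term, so a difference between genotypes adds to its spread and makes a pooled call less likely. Likeness of the genotypes among called genes is thus partly built in. Otud4 (0.33 in WT, 0.65 in R6/2), Nkrf (0.51, 0.87) and Prrg3 (0.42, 0.73) had the largest differences of the named called genes, with edgeR interaction adjusted p of 0.383, 0.509 and 0.512. Rcan1 (−0.38 in both), Galr1 (0.81, 0.80) and Svop (−0.60, −0.61) had the smallest. Over all genes edgeR called 1 interaction (0.00426%), that of Phf3, which is no pooled call. Across the 14864 genes whose mean log2 CPM was 1 or more, the WT and R6/2 changes correlated at r = 0.188 across genes, which are not independent replicates. The libraries of shTRAX and control were separate in the same direction within both genotypes for 37 of the 39 genes and for 431 of all genes (1.84%), 237 higher and 194 lower. The 39 were called on these same libraries, so their separation follows largely from the call and is no separate support.

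**Figure D3:**
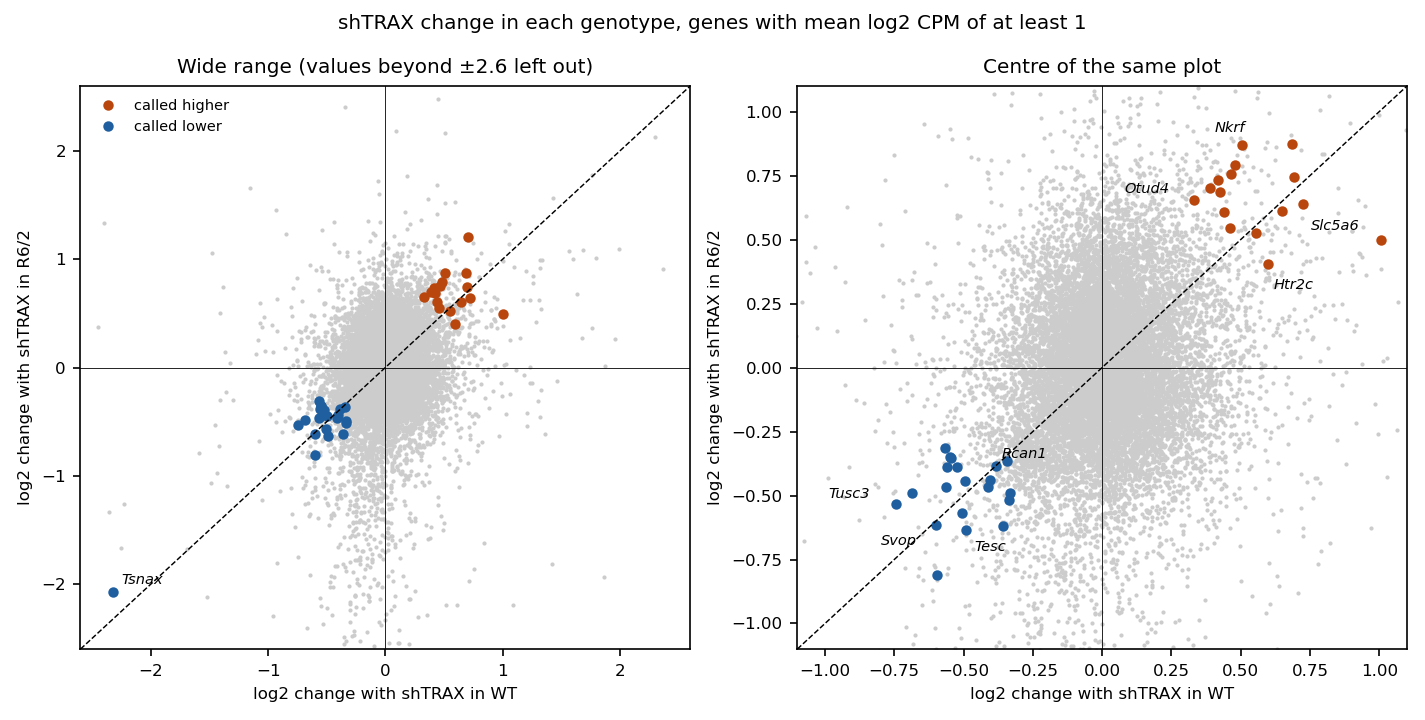
Change with shTRAX in WT (x axis, log2) against that in R6/2 (y axis, log2) for genes whose mean log2 CPM was 1 or more, over a wide range at left and enlarged at right. Called genes lie near the dashed line of equal change, with Tsnax at −2.32 and −2.07. The pooled fit disfavours genes whose change differs between genotypes. Galr1 is under the level limit and not drawn.

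No listed partner of TRAX was called by edgeR, which called 0.166% of all genes. Tsn had a change of 0.08 (SE 0.07, adjusted p = 0.644), and Disc1, which lies downstream on the chromosome, −0.19 (SE 0.17, adjusted p = 0.669). Disc1 was scarce, at 0.81 to 1.85 CPM in the controls and 0.68 to 1.83 with shTRAX, so its change is poorly resolved. In the list of 12 TRAX partners edgeR called 0 and DESeq2 0, and 1 had an unadjusted p under 0.05 (Golga3, a Golgi protein, 0.22, SE 0.09). The median change of the list was 0.03, with −0.03 in WT and 0.13 in R6/2. Genes beside Tsnax had a median of 0.03, with 1 of 6 at an unadjusted p under 0.05, Exoc8 of the exocyst complex (0.22, SE 0.08).

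Over 39 lists of genes with known functions or cell types, edgeR called 0 of 739 members tested, limma voom 0, DESeq2 13 and edgeR on recovered fragments 3. Of the DESeq2 calls, the small RNA, late activity and medium spiny neuron lists held 2 each. The cAMP, direct pathway, neuropeptide, stress response, ribosomal, DNA repair, p53 and reactive glia lists held 1 each, and some genes are in 2 lists. Over all 23453 genes tested, edgeR called 39 (0.166%), limma voom 43 and DESeq2 432. In recovered fragments edgeR called 107 of 18776. The list counts lie near these shares, so they do not set the lists apart. Unadjusted p was under 0.05 for 98 members, 27 higher and 71 lower, or 13.3% against 11.8% of all genes. Of all genes, 6.61% were higher and 5.2% lower at that p, and 11231 of 23453 had a positive change. Members of a list can rise and fall together, so the counts of signs and of p-values given below are not counts of independent genes. Small RNA genes, which include the Argonaute and GW182 proteins that act in silencing, had a median of 0.14, with 14 of 15 positive and 6 at an unadjusted p under 0.05, all higher. The median was 0.03 in WT and 0.30 in R6/2. Their summed level was 2253 to 2458 CPM in WT-C and 2218 to 2385 in WT-T, which overlapped, and 2302 to 2572 in R6/2-C and 2878 to 2920 in R6/2-T, which did not. Ago1 measured 95, 82.9 and 93.3 CPM in WT-C against 104, 126 and 120 in WT-T. The R6/2 controls had 72.3, 99.1 and 63.6 CPM, against 114, 114 and 122 with shTRAX. All 6 shTRAX libraries lay above all 6 controls, but edgeR did not call Ago1 in estimated counts (log2 0.47, SE 0.10, adjusted p = 0.124). It did in recovered fragments (edgeR adjusted p = 0.0469). DESeq2, run on the estimated counts, called 2 of the 15 small RNA genes, both higher. Tnrc6c, a GW182 protein, had 0.41 (SE 0.11, adjusted p = 0.214). Ago2, the Argonaute with slicer activity, had 0.32 and Dicer1 0.22. The rule for naming genes leaves out both, and they were chosen after their values were seen.

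Genes of the cAMP pathway, which links dopamine and adenosine receptors to protein kinase A in striatal neurons, had a median of 0.03, with 4 of 25 lower and 0 higher at an unadjusted p under 0.05. Prkar2b, a regulatory subunit of protein kinase A, measured 63.4, 74.2 and 63.9 CPM in WT-C against 33.1, 46.4 and 51.3 in WT-T. It had 69.9, 140 and 152 CPM in R6/2-C and 57, 54.2 and 46.4 in R6/2-T. The 6 shTRAX libraries lay below the 6 controls (log2 −0.91, SE 0.19, adjusted p = 0.107; adjusted p = 0.0234 in recovered fragments). Prkaca, a catalytic subunit, had −0.25 (SE 0.07, adjusted p = 0.223), also with no overlap.

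Markers of medium spiny neurons, the main cells of the striatum, had a median of −0.13, with 8 of 25 positive. At an unadjusted p under 0.05, 7 of 25 were lower and 0 higher. Their summed level was 15116 to 17640 CPM in WT-C and 14036 to 19502 in WT-T. It was 7722 to 9813 CPM in R6/2-C and 7429 to 7898 in R6/2-T, so the groups overlapped in both genotypes. In bulk tissue, fewer cells of a type and less RNA per cell cannot be told apart. Kcnip2, a potassium channel-interacting protein, measured 193, 199 and 177 CPM in WT-C against 119, 140 and 177 in WT-T. It had 93.7, 94.1 and 76.8 CPM in R6/2-C and 49.6, 49 and 54.3 in R6/2-T. The groups were separate within each genotype, in WT only just. The change was −0.59 (SE 0.11, adjusted p = 0.0679), and it was called in recovered fragments (adjusted p = 0.0276). Rarb, a retinoic acid receptor, had −0.34 (SE 0.08, adjusted p = 0.134). Direct pathway markers had a median of −0.05, with 4 of 10 positive. Indirect pathway markers had −0.18, with 0 of 8 positive and 3 at an unadjusted p under 0.05. Those 3 include Adk, adenosine kinase (log2 −0.23, SE 0.10), and whether Adk is confined to these neurons was not tested. By genotype the medians were 0.03 in WT and −0.26 in R6/2 for medium spiny neuron markers, and 0.10 and −0.39 for indirect pathway markers. Among the peptides, Penk, the enkephalin precursor, had −0.59 (SE 0.19, adjusted p = 0.284), and Pdyn, the dynorphin precursor, −0.50 (SE 0.11, adjusted p = 0.124). Pdyn had 59.9, 52.7 and 63.4 CPM in R6/2-C and 34, 33.7 and 33.6 in R6/2-T, while WT-C at 102 to 117 overlapped WT-T at 83.9 to 104. Its change was −0.20 (SE 0.10) in WT and −0.80 (SE 0.10, edgeR adjusted p = 0.0292) in R6/2, with an interaction adjusted p of 0.346. Interneuron markers had a median of 0.02 and cortical excitatory markers −0.03.

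Immediate-early genes, which neurons induce on activity, had a median of 0.36 in WT and −0.57 in R6/2, and −0.09 pooled, with 1 of 18 at an unadjusted p under 0.05. Their summed level was 1480 to 1675 CPM in WT-C, 2214 to 2481 in WT-T, 529 to 981 in R6/2-C and 484 to 618 in R6/2-T. The WT groups did not overlap and the R6/2 groups did, and without R6/2-C 1 the pooled median was 0.14. Late activity genes had a median of −0.21, with 0 of 15 positive. Nptx2, a pentraxin that gathers glutamate receptors, had a pooled change of −0.76 (SE 0.19, adjusted p = 0.16). By genotype it was −0.26 (SE 0.17) in WT and −1.28 (SE 0.18, edgeR adjusted p = 0.0401) in R6/2, with an interaction adjusted p of 0.346. Inhba, an activin subunit, had −0.56 (SE 0.12, adjusted p = 0.124). Glutamate and postsynaptic genes had a median of 0.08 and GABA genes 0.08, with 5 of 24 and 3 of 17 higher and 0 lower at an unadjusted p under 0.05. Without WT-T 3 these medians were 0.002 and 0.05, and without WT-T 1 they were 0.15 and 0.16. Dlg2, a postsynaptic scaffold, had 0.27 (SE 0.11) and Gad2, a GABA-producing enzyme, 0.20 (SE 0.08).

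Immune and reactive glial genes had the most negative pooled medians. In these lists edgeR called no member in the pooled comparison, while DESeq2 called 1, Cd44, and edgeR called Cd44 and Cd79a without WT-T 1. Interferon-stimulated genes, which cells switch on when they sense viral nucleic acid, had a median of −0.89, 0 of 25 positive and 10 at an unadjusted p under 0.05. Their summed level was 1042, 2089 and 2987 CPM in WT-C, 2364, 1776 and 1006 in WT-T, 686, 1756 and 2223 in R6/2-C and 299, 580 and 773 in R6/2-T. WT-T overlapped WT-C and R6/2-C overlapped R6/2-T. Antigen presentation genes had −1.02, nucleic acid sensing genes −0.54, reactive glia genes −0.78, microglia −0.31, disease-associated microglia −0.38 and lymphocyte and granulocyte markers −0.80. By genotype, with no test of the difference, the medians were 0.28 in WT and −2.30 in R6/2 for lymphocyte and granulocyte markers, 0.02 and −0.44 for microglia, −0.05 and −0.69 for disease-associated microglia, and −0.38 and −1.097 for reactive glia. For interferon-stimulated genes they were −0.24 and −1.57, for antigen presentation −0.35 and −1.73, and for nucleic acid sensing −0.09 and −0.93. Without WT-T 1 the lymphocyte and granulocyte median was −1.72, and without R6/2-C 3 the microglia and disease-associated microglia medians were −0.18 and −0.21. For reactive glia 9 of 17 had an unadjusted p under 0.05, all lower. Cd44, a matrix receptor of reactive astrocytes, had 12.7 to 26.6 CPM in WT-C, 6.07 to 19.4 in WT-T, 7.79 to 15.1 in R6/2-C and 3.73 to 5.91 in R6/2-T (log2 −1.07, SE 0.30, adjusted p = 0.232). With 1 surrogate variable the interferon median was −0.15 and the reactive glia median −0.23, while those of microglia, disease-associated microglia and lymphocyte and granulocyte markers turned positive, at 0.02, 0.08 and 0.11. That variable was −0.46, −0.33 and −0.30 in R6/2-T and −0.25, −0.02 and 0.18 in R6/2-C. It was 0.45, 0.14 and −0.09 in WT-T and −0.01, 0.28 and 0.43 in WT-C. Within every group it ordered the libraries as their interferon-stimulated sums did. The variable thus takes out part of the shTRAX contrast in R6/2 and part of the immune signal in all groups. The smaller immune medians in that fit are therefore partly built in, and what the variable stands for was not tested. WT-T 1 had the highest summed level of microglia markers of all libraries, 2296 CPM, and without it the reactive glia median was −1.04.

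**Figure D4:**
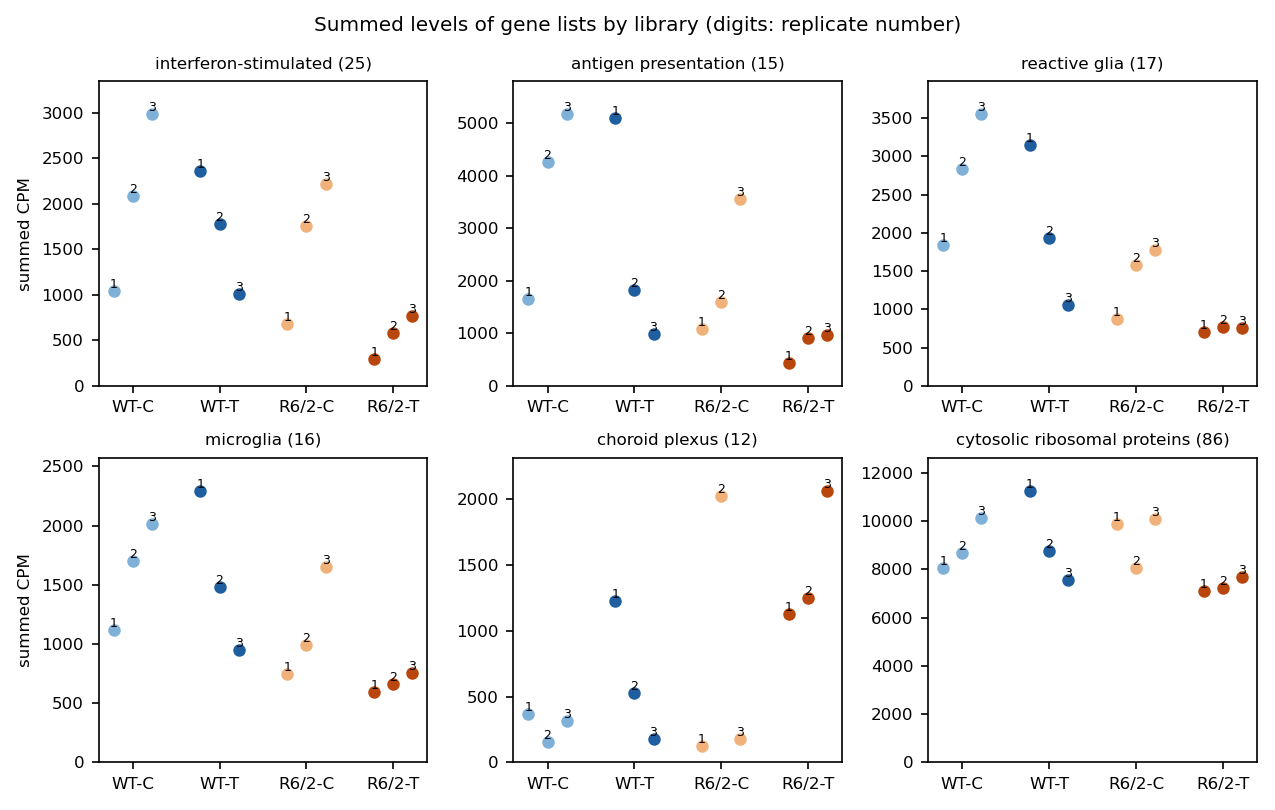
Summed level in CPM (y axis) of 6 gene lists in each library by group (x axis), with replicate numbers. R6/2-T libraries lie low for the immune and glial lists, with R6/2-C 1 near or among them. They span fewer CPM than WT-C, WT-T and R6/2-C, although interferon-stimulated genes still ran from 299 to 773 CPM in R6/2-T. WT-T 1 lies near the top. Choroid plexus genes vary from 128 to 2066 CPM.

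Choroid plexus genes, which mark the epithelium of the ventricles and not the striatum, had the highest median, 1.11, with 12 of 12 positive and 1 at an unadjusted p under 0.05 (Clic6, a chloride channel protein, 0.92, SE 0.36). Their summed level was 367, 152 and 316 CPM in WT-C, 1225, 529 and 181 in WT-T, 128, 2022 and 179 in R6/2-C and 1130, 1249 and 2066 in R6/2-T. The groups overlapped in both genotypes, and the median was 2.34 without R6/2-C 2 and 0.88 without WT-T 1. Htr2c, called above, is also a gene of the choroid plexus, and its level in R6/2-C 2, the control library with the most choroid plexus signal, was 178 CPM against 137 in both other R6/2-C libraries. The part of this signal in the Htr2c result was not tested.

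Other cell markers had medians of 0.03 for astrocytes, −0.18 for myelinating oligodendrocytes, −0.08 for their precursors, −0.02 for endothelial and mural cells, −0.24 for fibroblasts, 0.17 for ependyma and 0.09 for erythroid genes. Myelin genes were negative in 15 of 15 cases, 4 with an unadjusted p under 0.05, among them Cldn11, a tight junction protein of myelin (−0.28, SE 0.09), and Opalin (−0.36, SE 0.14).

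Genes of the unfolded protein and integrated stress response had a median of −0.15, with 7 of 18 lower and 0 higher at an unadjusted p under 0.05. Hspa5, the chaperone BiP, had −0.25 (SE 0.08, adjusted p = 0.263), and Trib3, a target of the stress factors ATF4 and CHOP, −0.73 (SE 0.20, adjusted p = 0.231). Ribosomal protein genes had a median of −0.17 with 3 of 85 positive, 0.02 in WT and −0.35 in R6/2. p53 targets had −0.11, double-strand break repair genes 0.10, heat shock genes −0.05, cholesterol synthesis −0.05, nuclear oxidative phosphorylation −0.03 and mitochondrially encoded genes 0.11. GSK3 and Wnt genes had 0.01. Neuropeptides had 0.02, with 0.23 in WT and −0.39 in R6/2, and replication-dependent histones 0.05, with 0.22 and −0.17. The pooled medians of the GSK3, neuropeptide, histone, cholesterol and nuclear oxidative phosphorylation lists each changed sign with some library left out. So did those of the TRAX partner, cAMP, immediate-early, direct pathway, interneuron, cortical excitatory, endothelial and mural, and erythroid lists. In DNA repair, Lig4, the ligase of end joining, had 0.26 (SE 0.07) and Trp53bp1 0.24 (SE 0.08), and among p53 targets Ccng1 had −0.32 (SE 0.08). edgeR called none of these, and DESeq2 called Lig4 and Ccng1.

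**Figure D5:**
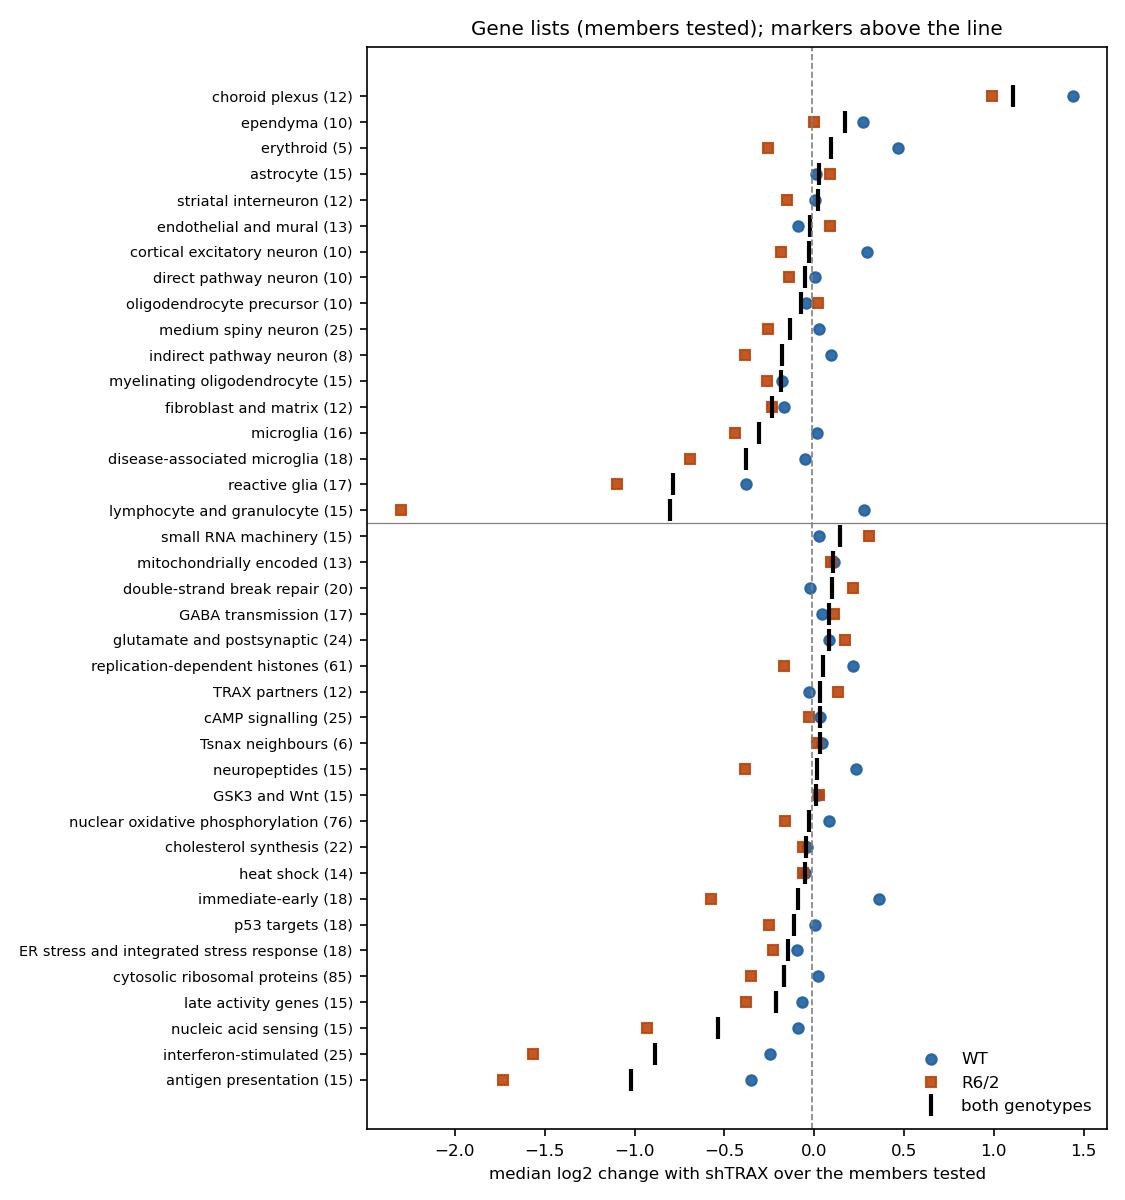
Median log2 change with shTRAX (x axis) over the tested members of each gene list (y axis, number tested in brackets), in WT, in R6/2 and pooled, with cell type markers above the grey line and the median of all genes dashed. Immune and reactive glial lists lie furthest left, more so in R6/2, and choroid plexus furthest right. In the pooled comparison edgeR called no list member, against 0.166% of all genes. In R6/2 it called Pdyn and Nptx2.

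Without WT-T 1, which leaves WT-T with 2 libraries, 299 of 24021 genes were called (1.24%), 207 higher and 92 lower, and all 39 were among them. Of the list members 12 were called there. Ago1 (0.52) and Tnrc6c (0.48) were higher. Kcnip2 (−0.55), Penk (−0.76), Cd44 (−1.37), Opalin (−0.49), Rpl10 (−0.73), Rpl23 (−0.43) and Cd79a (−2.002) were lower. So were Sdf2l1 (−0.77), Manf (−0.37) and Calr (−0.30), all of the endoplasmic reticulum. Among further genes, chosen after their values were seen, the progesterone receptor gene Pgr had 0.96 and the chromatin remodeller Chd5 0.57.

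The authors' deposited table compares R6/2-T with R6/2-C for 626 genes called neuron-enriched. It holds 16 of the 39 pooled genes, of which it gives the ratio of mean FPKM as 0.231 for Tsnax, 1.64 for Dnajc27, 1.76 for Nkrf, 0.645 for Svop and 0.63 for Prmt8. The R6/2 groups are also part of the pooled comparison, so these ratios are not independent of the calls. In the authors' deposited table the q-value of Htr2c was 0.078.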

How the data were processed

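Total RNA of mouse striatum was sequenced in 12 libraries of 4 groups, and the labels name a stranded total RNA kit. Per the submitters' processing notes, reads were handled with bcl2fastq 2.20 and HISAT2 on GRCm38; how the counting treated strand is not given there or in the labels. The authors' gene table holds estimated counts from StringTie, per the file headers, in whole numbers at about 4.11 per fragment and with totals of 131783370 to 229332386. It also holds a signal from Cuffdiff, per the file headers, in which the authors divided fragments by a size factor. Undoing that factor gave fragments that were whole within 0.05 for 95.96% to 97.09% of values; they served as an alternative. The authors deposited FPKM values, and the change from R6/2-C to R6/2-T as a ratio, its log2 and p-values and q-values, whose test is not stated. A further 12 columns of correlations were not used.

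Tests on the estimated counts used edgeR 4.0.16 under R 4.3.3 (TMM scaling, filterByExpr by group, robust quasi-likelihood F test, genotype and virus as terms), two-sided, with Benjamini-Hochberg adjusted p under 0.05. Because estimated counts exceed fragments, their sampling error is larger than their size implies. SE is the log2 change over the root of F. The contrasts within WT, within R6/2 and of the interaction used all 12 libraries. The steps were tested on simulated data. Alternatives used DESeq2 1.42.0, limma 3.58.1 and sva 3.50.0, other scalings and filters, and each library left out. P-values measure the spread between libraries, which may be technical. The members and the 39 gene lists were chosen with earlier results of these data known. Named genes were Tsnax, Tsn and Disc1, up to 15 called genes in each direction and a mean log2 CPM no lower than 1, up to 2 uncalled members of each list with an unadjusted p under 0.05, and the 3 called genes with the largest and the 3 with the smallest difference between genotypes, without unnamed gene models.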

Additional observations from a re-analysis of the deposited data

Results flagged for a closer look

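Phf3, which encodes a protein with a PHD finger, had a difference between genotypes in the interaction test. The R6/2-T libraries had 164, 153 and 147 CPM, against 41.2, 55.6 and 43.5 for R6/2-C. Levels in WT were 41.3, 38.0 and 50.1 CPM with the control virus, against 43.2, 44.2 and 36.7 with shTRAX. Every R6/2-T library lay above all 9 others, which overlapped. The log2 change was −0.06 (SE 0.14) in WT and 1.73 (SE 0.14, edgeR adjusted p = 0.00073) in R6/2, a difference of 1.79 (SE 0.19, edgeR adjusted p = 0.0302). In recovered fragments the difference was 0.43 (SE 0.15, adjusted p = 0.263), so it rests on the estimated counts.

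The summed level of 15 astrocyte markers was separate in opposite directions in the 2 genotypes. It was 6642 to 7415 CPM in WT-C and 6410 to 6638 in WT-T, groups that come within a few CPM of each other, and 3516 to 4485 in R6/2-C and 4646 to 4842 in R6/2-T. The log2 ratio of group means was higher by 0.317 in R6/2 than in WT, and this difference was not tested.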

How the results depend on the processing

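The pooled count of 39 was 432 with DESeq2, 170 with voom quality weights, 64 with a mean CPM of at least 1, 107 in recovered fragments, 1 without the genotype term and 23 with 1 surrogate variable, and 2 to 299 with a library left out. The interaction count of 1 was 193 with DESeq2, 0 in recovered fragments, 5 with 1 surrogate variable and 0 to 29 with a library left out. The WT count of 1 was 3 with upper-quartile factors, 114 with DESeq2, 4 in recovered fragments, 3 with 1 surrogate variable and 1 to 11 with a library left out. The R6/2 count of 16 was 73 with upper-quartile factors, 1685 with DESeq2, 505 in recovered fragments, 3 with 1 surrogate variable and 2 to 1197 with a library left out. The cause was not tested. Same-numbered libraries correlated at −0.253 to 0.203 and 3 of 12 did so best with their own number, so they share only a number; with the replicate block the pooled, interaction, WT and R6/2 counts were 2, 0, 1 and 4. Tsnax ranged from −2.24 to −2.15 with a library left out and was called in all 27 other fits. Depth class as a term, chosen after seeing the data, gave 36. Of 2319 values of named genes in other fits, 1953 kept direction and side of the threshold, 330 lost the call and 35 gained one. The 1 other value changed sign: mt-Nd4l, not called, had a log2 change of 0.30 and −0.43 in recovered fragments. With 1 surrogate variable the medians were −0.03 for nucleic acid sensing, 0.02 for microglia, 0.08 for disease-associated microglia and 0.11 for lymphocyte and granulocyte markers, and without the genotype term the immediate-early median was 0.15. The surrogate variable was lower in every R6/2-T library than in every R6/2-C library. Within each group it ordered the libraries as their interferon-stimulated sums did.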
